A study of Mus musculus with 105 samples.

Results

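The Hox genes described here are all genes of the mRNA table whose symbol is Hoxa, Hoxb, Hoxc or Hoxd followed by a paralog group number. They are 39 of the 54532 genes in the table, 11 in the Hoxa cluster, 10 in Hoxb, 9 in Hoxc and 9 in Hoxd. They were compared across 3 mouse cell lines with 2 poly(A) RNA libraries each, from a series on how fast miRNAs are made and lost. ESC is the embryonic stem cell line v6.5 with the strain label C57BL/6, grown with LIF in N2 and B27 medium with the inhibitors PD0325901 and CHIR99021. CIMEF are embryo-derived fibroblasts with the strain label C57BL/6J, held contact-inhibited for 5 days. DMEF are embryo-derived fibroblasts of the same strain label that were passaged and kept dividing. All 3 lines carry a passage label of 5 to 15 and no genetic change is labelled. The mRNA samples carry no label of a 5-ethynyluridine treatment, the nucleoside used to mark new miRNAs in the rest of the series. The part of the embryo from which the fibroblasts came, the number of embryos and whether the 2 libraries of a line came from separate cultures are not stated. P-values therefore measure the spread between these libraries, which may be technical.

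Hox proteins are homeodomain transcription factors that give cells their position along the body axis. Their genes lie in clusters, and the order of the genes on the chromosome follows the order of their expression domains from the hindbrain to the tail, a relation called colinearity. Genes with low paralog numbers act in the hindbrain and neck, genes with middle numbers in the trunk, and genes with high numbers in the lumbar and tail region, the limbs and the genital region. Genes with the same number in different clusters are paralogs that arose by duplication of an ancestral cluster. Cultured fibroblasts keep much of the Hox pattern of the site they were taken from, whereas Polycomb complexes hold the clusters largely silent in embryonic stem cells.

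The mRNA libraries held 23030907 to 34093791 gene counts. Levels are given in CPM, counts per 1e6 of the library total after scaling by edgeR, with no correction for gene length, so levels are compared between libraries and not between genes. The labels were checked against marker genes. The 8 fibroblast markers summed to 2500 and 2540 CPM in ESC, to 34100 and 32000 CPM in CIMEF, and to 34900 and 31300 CPM in DMEF. The 8 stem cell markers summed to 2560 CPM in each ESC library, to 39.0 and 54.5 CPM in CIMEF, and to 32.3 and 38.7 CPM in DMEF. Each line thus carried its own markers at the higher level, and none of the 16 genes was at 0 in every library. The CIMEF replicates differed more from each other than those of the other lines: the SD over genes of their log2 difference was 0.814, against 0.542 in DMEF and 0.364 in ESC. Markers of other cell types, in lists of 3 to 5 genes, were also summed. Endothelial markers ranged over 67.9 to 70.5 CPM in ESC, 4.80 to 6.92 CPM in CIMEF and 16.2 to 20.1 CPM in DMEF. Macrophage markers, with Adgre1 at 0 throughout, were at 5.78 to 7.41 CPM in ESC, 1.65 to 2.49 CPM in CIMEF and 2.44 to 2.87 CPM in DMEF. Skeletal muscle markers, with Myog at 0 throughout, were at 3.65 to 4.33 CPM in ESC and at most 0.320 CPM in the fibroblast libraries. Neural markers were at 113 to 117 CPM in ESC, 483 to 545 CPM in CIMEF and 533 to 634 CPM in DMEF, and chondrocyte markers at 5.60 to 7.45 CPM in ESC, 24.3 to 28.3 CPM in CIMEF and 36.6 to 38.6 CPM in DMEF. Members of a list could go opposite ways. Mean CPM in ESC, CIMEF and DMEF was 10.9, 486 and 337 for the neural Map2, but 75.4, 1.06 and 5.98 for Tubb3. It was 64.8, 0.655 and 0.687 for the endothelial Pecam1, but 2.32, 2.53 and 15.9 for Kdr.

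On the GRCm38.p6 assembly the Hoxa genes span chr6:52155367-52260880, the Hoxb genes chr11:96194316-96368254, the Hoxc genes chr15:102921131-103036856 and the Hoxd genes chr2:74668225-74765142. RefSeq promoter windows, 250 bases before to 50 bases after a gene start, were matched by symbol for 22 of the 39 genes, 24 windows in all. Shown here are the windows of Hoxd13, which drew the most reads of all Hox genes in both fibroblast lines, of Hoxd4 in the same cluster, which had 0 counts in all 6 libraries, and of Hoxb1, which was read only in ESC. The span of Hoxd4 lies within that of Hoxd3, so its reads may have been left uncounted. The CG dinucleotides are in capitals, since CG-rich promoters are the usual sites of Polycomb binding.
Hoxd13 (chr2:74667975-74668274, plus strand): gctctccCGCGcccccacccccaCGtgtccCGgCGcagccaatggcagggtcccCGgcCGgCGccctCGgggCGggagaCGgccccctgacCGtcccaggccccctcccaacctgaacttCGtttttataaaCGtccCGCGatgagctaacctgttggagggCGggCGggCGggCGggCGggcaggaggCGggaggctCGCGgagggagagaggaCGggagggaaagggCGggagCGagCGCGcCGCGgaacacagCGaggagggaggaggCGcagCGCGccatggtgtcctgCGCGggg
Hoxd4 (chr2:74721728-74722027, plus strand): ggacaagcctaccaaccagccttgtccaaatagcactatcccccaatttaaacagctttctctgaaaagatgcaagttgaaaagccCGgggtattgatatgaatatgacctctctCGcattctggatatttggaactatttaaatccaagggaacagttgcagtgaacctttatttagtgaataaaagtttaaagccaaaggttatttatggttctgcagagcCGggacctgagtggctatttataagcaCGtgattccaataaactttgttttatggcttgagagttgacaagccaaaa
Hoxb1 (chr11:96365508-96365807, plus strand): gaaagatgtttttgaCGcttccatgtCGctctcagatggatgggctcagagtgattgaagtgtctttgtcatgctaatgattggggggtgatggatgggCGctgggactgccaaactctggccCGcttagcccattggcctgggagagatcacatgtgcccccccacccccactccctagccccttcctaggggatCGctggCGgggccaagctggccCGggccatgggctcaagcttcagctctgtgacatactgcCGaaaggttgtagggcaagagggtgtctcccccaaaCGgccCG
The windows hold 37 CG dinucleotides for Hoxd13, 4 for Hoxd4 and 10 for Hoxb1. The 24 Hox windows held a median of 14.5 (range 4 to 45, the highest at Hoxa13), against a median of 7 over all 32851 windows of the table, of which 34.6% reached 14.5. The window of Hoxd4, a gene without counts, that of the well-read Hoxa9 and 1 of the Hoxd11 windows each held 4. The letters TATAAA, the core of a TATA box, were found on either strand in 4 of the 24 windows (16.7%, against 13.6% of all windows), among them Hoxd13 and Hoxd4. The letters TGATNNAT, a spelling of the joint site of Hox and Pbx proteins, were found on either strand in 4 windows (16.7%, against 8.85% of all windows): Hoxa2, Hoxb1, Hoxb8 and 1 of the 2 Hoxd11 windows. Matches of the 2 motifs could overlap, and a match is a run of letters and not a measured site.

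Hox mRNA was read in all 3 lines, at a far lower level in ESC. The 39 genes summed to 38.0 ± 1.61 CPM in ESC, to 771 ± 40.0 CPM in CIMEF and to 712 ± 28.6 CPM in DMEF (SD, n = 2 each). In bulk libraries fewer cells that express a gene and less RNA per cell cannot be told apart. A count was found in both libraries for 35 of the 39 genes in ESC, 23 in CIMEF and 34 in DMEF, and the stem cells thus had a few reads of most genes. Both libraries were at 0 for 3 genes in ESC (Hoxa6, Hoxd3 and Hoxd4), for 8 in CIMEF (Hoxb1, Hoxb2, Hoxb13, Hoxc10, Hoxc11, Hoxc12, Hoxd1 and Hoxd4) and for 4 in DMEF (Hoxb1, Hoxc12, Hoxd1 and Hoxd4). A total of 0 counts allows up to 3 counts, or 0.0543 CPM in ESC, 0.0602 CPM in CIMEF and 0.0535 CPM in DMEF.

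**Figure D1:**
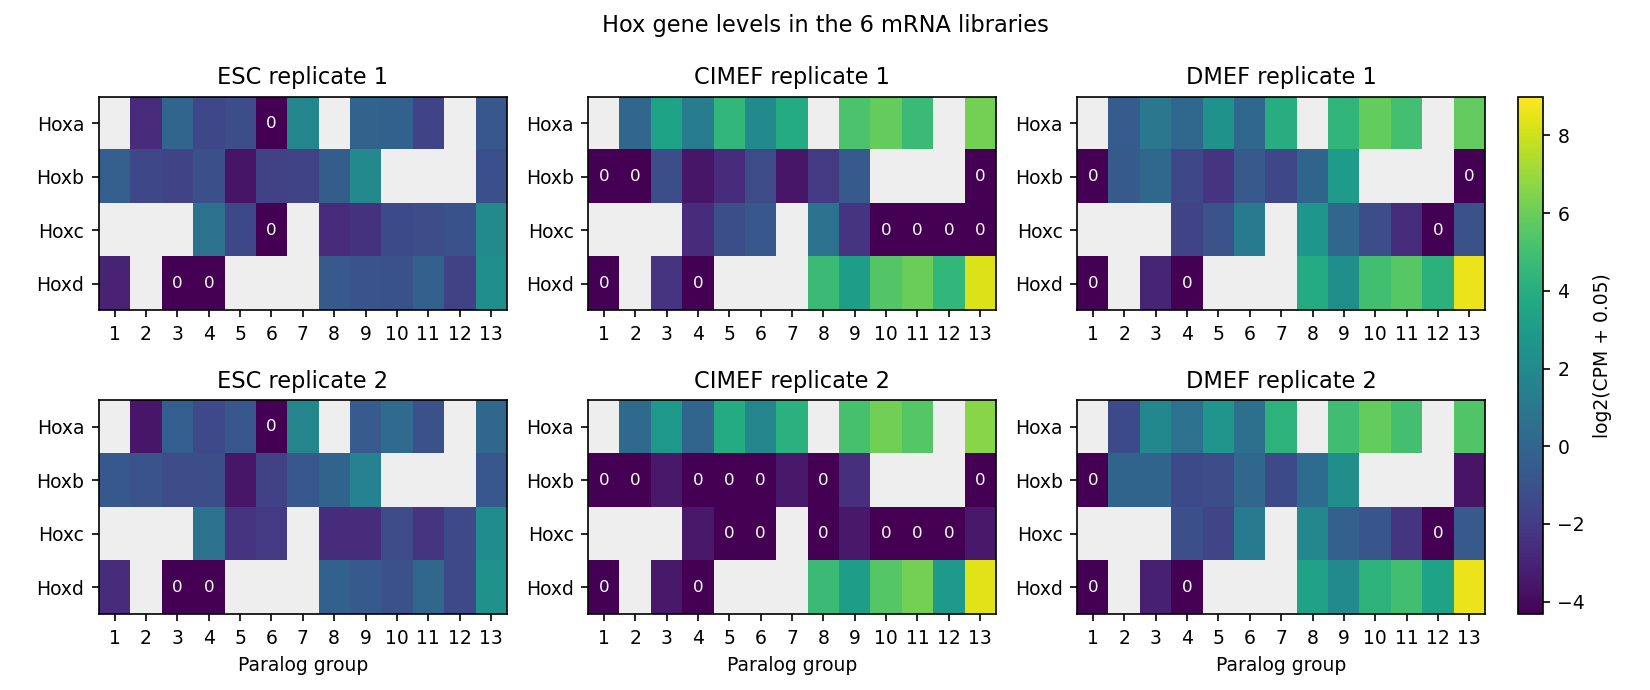
Level of Hox genes in each library as log2(CPM + 0.05), with clusters in rows and paralog groups in columns; pale cells have no gene of that name or one not shown and 0 marks a gene without a count. Colours are to be compared between panels for the same gene: the Hoxa row and genes 8 to 13 of Hoxd are bright in CIMEF and DMEF, while the Hoxb and Hoxc rows are darkest in CIMEF replicate 2, which has 13 zeros there.

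The clusters contributed very unequally to the Hox reads of fibroblasts. Hoxd gave 64.1 ± 1.39% of the Hox counts in CIMEF and 68.6 ± 1.03% in DMEF, and Hoxa gave 35.6 ± 1.79% in CIMEF and 28.4 ± 1.43% in DMEF (SD, n = 2 each). Hoxb and Hoxc together gave 0.611% and 0.0436% in the CIMEF libraries (exact 95% intervals 0.507 to 0.729% and 0.0188 to 0.0858%), against 3.24% and 2.69% in DMEF (2.99 to 3.51% and 2.48 to 2.91%). These intervals cover counting error only, as reads of 1 library are not independent molecules. In ESC the reads were spread over the clusters, with 39.8 ± 0.742% in Hoxa, 19.0 ± 1.21% in Hoxb, 19.5 ± 0.740% in Hoxc and 21.7 ± 1.21% in Hoxd. The shares of Hoxb plus Hoxc did not overlap between any of the lines. Along the body axis order, posterior genes (paralog groups 9 to 13) held 51.8 ± 0.511% of the Hox counts in ESC, 89.5 ± 1.91% in CIMEF and 91.2 ± 0.410% in DMEF. Anterior genes (groups 1 to 3) held 25.1 ± 0.0844% in ESC, 1.54 ± 0.469% in CIMEF and 1.90 ± 0.255% in DMEF, and central genes (groups 4 to 8) held 23.2 ± 0.596% in ESC, 8.98 ± 1.44% in CIMEF and 6.88 ± 0.156% in DMEF. Longer transcripts draw more reads, so these are shares of reads and not of molecules.

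**Figure D2:**
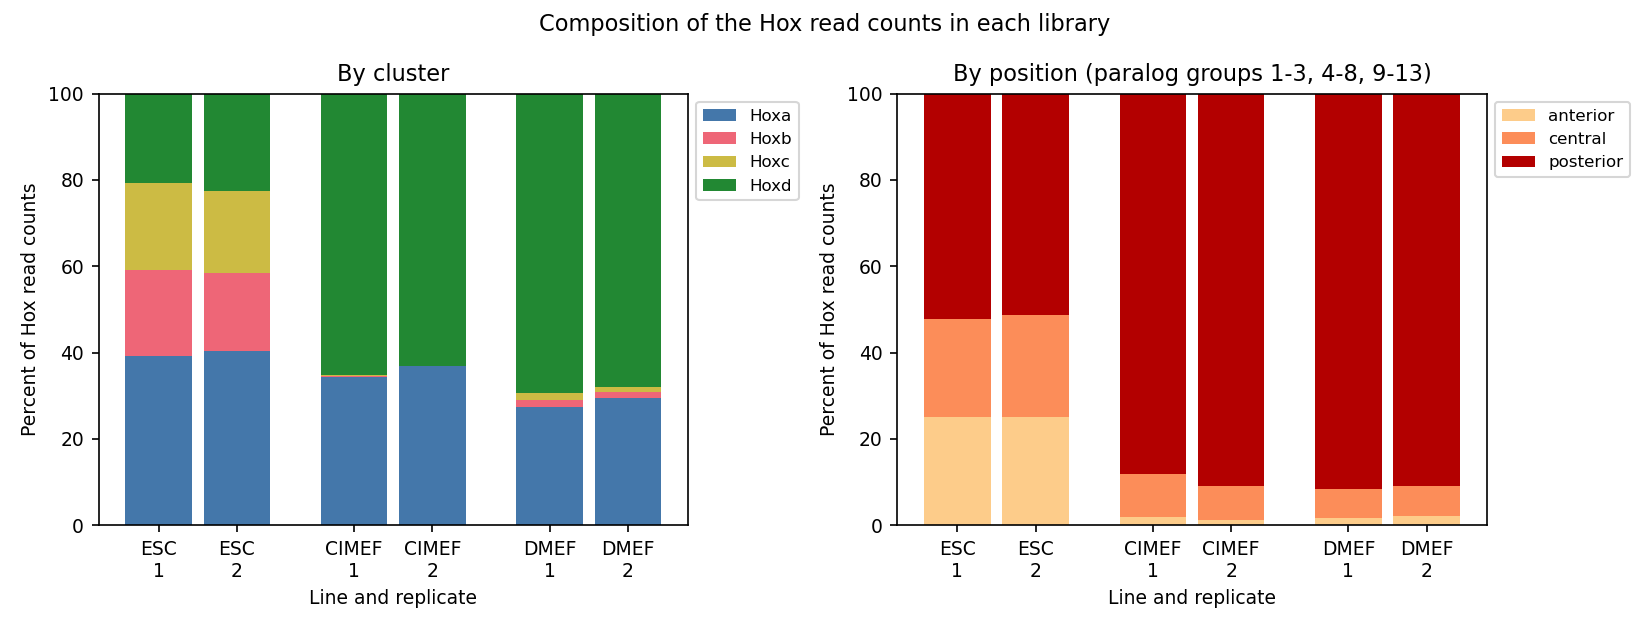
Share of each cluster (left) and of anterior, central and posterior genes (right) in the Hox read counts of each library, in percent. Hoxa and Hoxd fill nearly the whole bar in the fibroblast libraries, and the 4 clusters share the ESC bars, with Hoxa at 39.3 and 40.3%.

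Contact-inhibited fibroblasts had more mRNA of several Hoxa and Hoxd genes than dividing fibroblasts, and less of several Hoxb and Hoxc genes. The low-count filter kept 33 of the 39 genes, and Hoxb5, Hoxb7, Hoxc11, Hoxd1, Hoxd3 and Hoxd4 were not tested. Hoxb1, Hoxb4, Hoxb13 and Hoxc12 passed it through ESC alone and Hoxb6 and Hoxc9 through DMEF alone, so counts over the tested genes describe them and support nothing. In CIMEF minus DMEF, 18 of the 33 passed edgeR's quasi-likelihood test at an adjusted p under 0.05 (Benjamini-Hochberg over 18094 genes). The background was 40.6% of all tested genes, 19.5% higher and 21.1% lower. Of the 18 genes, 8 were higher in CIMEF (4 Hoxa, 4 Hoxd) and 10 were lower, among them 5 Hoxb and 4 Hoxc genes. The directions differed between clusters: the median log2 difference was 0.49 in Hoxa and 0.79 in Hoxd, and -2.83 in Hoxb and -2.79 in Hoxc, against 0 over all tested genes. With genes at 0 in 1 line set to the bound that 3 counts allow, and genes at 0 in both left out, the medians of Hoxb and Hoxc were -3.56 and -2.93. The total was 10 without DMEF replicate 1 and 8 without DMEF replicate 2, where 28.6% and 18.6% of all tested genes passed. When only the 4 fibroblast libraries were fitted, 6 genes were higher and 6 lower, and 34% of all tested genes passed. The genes Hoxa5, Hoxb2, Hoxb9, Hoxc10 and Hoxc13 passed under every alternative that could be fitted for them.

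**Figure D3:**
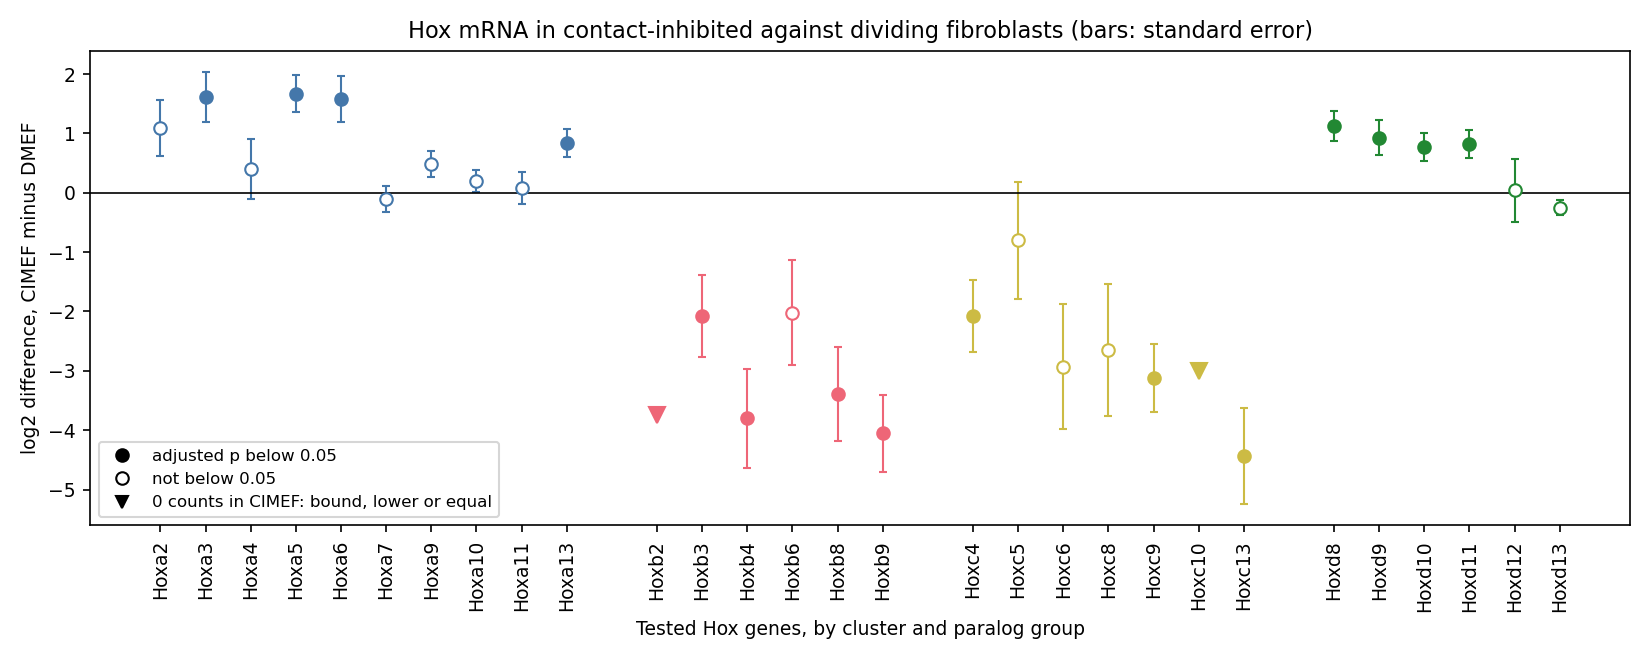
Log2 difference in CIMEF minus DMEF of tested Hox genes with its standard error, ordered by cluster and paralog group; filled points passed at an adjusted p under 0.05 and triangles mark genes with 0 counts in CIMEF at the bound that 3 counts allow. Hoxb1, Hoxb13 and Hoxc12, with 0 or 1 counts in all fibroblast libraries, are left out, and all points drawn for Hoxb and Hoxc lie below 0.

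Hoxa13 and the Hoxd genes of groups 10 to 13 pattern the limbs and the genital region. Hoxd13, which shapes the digits, had 5.00 and 5.47 CPM in ESC, 318 and 343 CPM in CIMEF and 391 and 394 CPM in DMEF. Both CIMEF values lay below both DMEF values, by a small margin, and the difference did not pass (log2 -0.25 ± 0.13 SE, edgeR adjusted p = 0.158). Hoxd11, which patterns the forearm and lower leg with Hoxa11, had 0.810 and 1.01 CPM in ESC, 63.6 and 74.6 CPM in CIMEF and 47.2 and 31.3 CPM in DMEF. Hoxd10, which acts in the lumbar spinal cord and the limbs, had 0.458 and 0.447 CPM in ESC, 42.6 and 44.1 CPM in CIMEF and 31.2 and 19.6 CPM in DMEF. Both genes lay higher in each CIMEF library than in each DMEF library and rose, Hoxd11 by 0.82 ± 0.23 and Hoxd10 by 0.77 ± 0.24 on the log2 scale (edgeR adjusted p = 0.0278 and 0.0378). The call of Hoxd11 was lost without DMEF replicate 2 (log2 0.59, adjusted p = 0.103, range 0.00208 to 0.103 over the alternatives) and without CIMEF replicate 2 or ESC replicate 2. The call of Hoxd10 was lost without DMEF replicate 2 (log2 0.51, adjusted p = 0.0878, range 0.0113 to 0.0878), without CIMEF replicate 2, without either ESC library and when only the fibroblast libraries were fitted.

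The other Hoxd genes with reads in fibroblasts were named after their values were seen. Hoxd8, a trunk gene, had 0.599 and 0.819 CPM in ESC, 27.3 and 26.7 CPM in CIMEF and 14.5 and 10.3 CPM in DMEF, and rose in CIMEF by 1.13 ± 0.25 (log2, edgeR adjusted p = 0.0118, and 0.0576 without DMEF replicate 2 within a range of 0.000388 to 0.0576). Hoxd9 had 0.493 and 0.633 CPM in ESC, 8.51 and 8.92 CPM in CIMEF and 5.00 and 4.12 CPM in DMEF. Both CIMEF libraries lay above both DMEF libraries, and it rose by 0.93 ± 0.29 (log2, edgeR adjusted p = 0.0373), a call lost in 7 of 11 alternatives, among them each DMEF and each ESC library left out, with adjusted p up to 0.130. Hoxd12, a limb gene, had 0.247 and 0.335 CPM in ESC, 22.9 and 7.14 CPM in CIMEF and 18.5 and 10.6 CPM in DMEF. The fibroblast lines overlapped, with a log2 difference of 0.04 ± 0.53. The 3' end of the cluster had nearly no counts in all lines: Hoxd1 had 2 and 3 counts in ESC and 0 in the fibroblasts, Hoxd3 had 0 in ESC, 4 and 1 in CIMEF and 2 and 2 in DMEF, and Hoxd4 had 0 throughout. The spans of Hoxd3 and Hoxd4 overlap, so reads of both may have been left uncounted. Hoxd8, the gene with 735 and 613 reads in CIMEF, ends 4059 bases before the annotated start of Hoxd3.

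In Hoxa the reads reached further toward the anterior end. Hoxa13, which acts with Hoxd13 in the digits and the genital region, had 0.564 and 1.01 CPM in ESC, 75.3 and 97.5 CPM in CIMEF and 54.9 and 41.7 CPM in DMEF. It was higher in both CIMEF libraries (log2 0.84 ± 0.24, edgeR adjusted p = 0.0322), but the call was lost without DMEF replicate 1 (0.0625), DMEF replicate 2 (0.177) or CIMEF replicate 2 (0.0588), within a range of 0.000827 to 0.177. Hoxa10, known for the lumbar vertebrae and the uterus, had 0.845 and 1.23 CPM in ESC, 58.5 and 71.8 CPM in CIMEF and 57.0 and 56.7 CPM in DMEF. Hoxa11, of the forearm and lower leg, had 0.282 and 0.447 CPM in ESC, 26.6 and 44.2 CPM in CIMEF and 32.9 and 34.1 CPM in DMEF. Hoxa10 was slightly higher in each CIMEF library and Hoxa11 overlapped between the fibroblast lines, and neither passed (log2 0.20 ± 0.19 and 0.08 ± 0.27). Hoxa6, of the trunk, had 0 counts in both ESC libraries, 4.13 and 3.35 CPM in CIMEF and 1.04 and 1.45 CPM in DMEF. It rose in CIMEF by 1.58 ± 0.39 (log2, edgeR adjusted p = 0.0228), and the call was lost without DMEF replicate 1 (0.0935) or DMEF replicate 2 (0.0722), within a range of 0.00371 to 0.0935. Hoxa7, also of the trunk, had 3.38 and 3.31 CPM in ESC, 14.5 and 18.2 CPM in CIMEF and 15.7 and 19.3 CPM in DMEF, with overlapping fibroblast lines (log2 -0.10 ± 0.22).

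Hoxa5, Hoxa3 and Hoxa9 were named after their values were seen. Hoxa5, which is needed for the lung, had 0.387 and 0.558 CPM in ESC, 22.5 and 14.4 CPM in CIMEF and 5.56 and 6.02 CPM in DMEF. Hoxa3, which is needed for the thymus, had 0.951 and 0.745 CPM in ESC, 10.5 and 6.75 CPM in CIMEF and 1.92 and 3.70 CPM in DMEF. Both were higher in each CIMEF library than in any other library, Hoxa5 by 1.67 ± 0.31 against DMEF (log2, edgeR adjusted p = 0.00643) and Hoxa3 by 1.61 ± 0.42 (0.0225, and 0.0840 without DMEF replicate 1 within a range of 0.000428 to 0.0840). Hoxa9, known for its action in blood progenitors, had 0.881 and 0.670 CPM in ESC, 37.8 and 34.8 CPM in CIMEF and 21.6 and 30.0 CPM in DMEF. Its CIMEF libraries lay above its DMEF libraries, but the difference did not pass (log2 0.49 ± 0.22, adjusted p = 0.113). Hoxa2, of the hindbrain and the jaw region, and Hoxa4 had log2 differences of 1.09 ± 0.47 and 0.40 ± 0.51 and did not pass.

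The Hoxb genes had low counts in fibroblasts and lower ones in CIMEF. Hoxb9, a thoracic gene that drew the most reads of the cluster, had 3.84 and 2.90 CPM in ESC, 0.632 and 0.131 CPM in CIMEF and 8.33 and 4.80 CPM in DMEF. No CIMEF value reached a DMEF or ESC value, and the log2 difference in CIMEF minus DMEF was -4.05 ± 0.65 (edgeR adjusted p = 0.00434). Hoxb2, which acts in the hindbrain, had 9 and 13 counts in ESC, 0 and 0 in CIMEF and 16 and 29 in DMEF. It was at least 13.4-fold lower in CIMEF than in DMEF, taking 3 counts over both CIMEF libraries as the floor (edgeR adjusted p = 0.00372). Hoxb4, known for its action in blood stem cells, had 12 and 11 counts in ESC, 1 and 0 in CIMEF and 8 and 11 in DMEF. The ratio of DMEF to CIMEF was 16.9 (exact 95% interval 2.69 to 703), and the adjusted p of 0.0120 passed but was 0.0521 and 0.0777 without DMEF replicate 1 or 2 (range 0.00276 to 0.0777). Hoxb8, of the trunk and of myeloid progenitors, had 20 and 25 counts in ESC, 5 and 0 in CIMEF and 23 and 38 in DMEF. Its log2 difference was -3.39 ± 0.79 (adjusted p = 0.0153, and 0.0578 and 0.102 without DMEF replicate 1 or 2, range 2.51e-06 to 0.102). Hoxb3, of the hindbrain and neck, had 8 and 10 counts in ESC, 11 and 1 in CIMEF and 27 and 29 in DMEF, and its call at an adjusted p of 0.0496 was lost in 9 of 11 alternatives, without each library except CIMEF replicate 1, with values up to 0.178. Hoxb6, with 7 and 7 counts in ESC, 10 and 0 in CIMEF and 15 and 31 in DMEF, did not pass (log2 -2.02 ± 0.88). It entered the test through DMEF alone, so its p is not given. Of the 2 genes not tested, Hoxb5 had 1 and 1 counts in ESC, 3 and 0 in CIMEF and 4 and 12 in DMEF, and Hoxb7 had 8 and 15 in ESC, 1 and 1 in CIMEF and 8 and 11 in DMEF. Hoxb13, which acts in the tail and the prostate, had 12 and 15 counts in ESC and at most 1 in any fibroblast library, and Hoxb1 had 22 and 16 counts in ESC and 0 in the others.

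The Hoxc genes with reads in DMEF likewise had lower mean levels in CIMEF than in DMEF. Hoxc8, which specifies motor neurons of the forelimb level, had 0.106 and 0.112 CPM in ESC, 1.52 and 0 CPM in CIMEF and 6.36 and 3.51 CPM in DMEF. Hoxc6, of the same region, had 0 and 0.186 CPM in ESC, 0.558 and 0 CPM in CIMEF and 2.28 and 2.22 CPM in DMEF. For both, CIMEF lay below DMEF in every library, and neither difference passed, with a wide error (log2 -2.65 ± 1.11 and -2.93 ± 1.05, edgeR adjusted p = 0.0956 and 0.0619). Hoxc8 passed in 4 of 11 alternatives, with the replicate block (adjusted p = 0.0375), without the low-count filter (1.94e-07), without CIMEF replicate 1 (0.000756) and without CIMEF replicate 2 (0.0164, log2 -1.69), within a range up to 0.309. Hoxc6 passed in 3 of 11, without the filter (6.36e-07) and without CIMEF replicate 1 (0.00437) or 2 (0.0344), within a range up to 0.210. Hoxc9, a thoracic gene, had 4 and 3 counts in ESC, 4 and 1 in CIMEF and 25 and 25 in DMEF, with a log2 difference of -3.12 ± 0.57 in CIMEF minus DMEF. It entered the test through DMEF alone, so its p is not given. Hoxc10, of the lumbar region and the hindlimb, had 10 and 10 counts in ESC, 0 and 0 in CIMEF and 10 and 17 in DMEF, at least 8.01-fold lower in CIMEF than in DMEF (adjusted p = 0.00506). Hoxc13, needed for hair and nails, had 115 and 120 counts in ESC, 0 and 1 in CIMEF and 11 and 19 in DMEF. The 3 lines did not overlap, and the ratio of DMEF to CIMEF was 26.7 (exact 95% interval 4.44 to 1090, adjusted p = 0.00642). Hoxc4, the most anterior gene of the cluster, had 45 and 42 counts in ESC, 3 and 1 in CIMEF and 7 and 13 in DMEF. Its log2 difference in CIMEF minus DMEF was -2.08 ± 0.61 (adjusted p = 0.0331), a call lost in 7 of 10 alternatives, without each library except CIMEF replicate 1, with values up to 0.149. Hoxc5, with 9 and 4 counts in ESC, 11 and 0 in CIMEF and 12 and 9 in DMEF, did not pass (log2 -0.80 ± 0.99, adjusted p = 0.540), except without CIMEF replicate 1 (0.0363), within a range up to 0.924. Hoxc12 was read in ESC alone (13 and 9 counts), and Hoxc11, not tested, had 11 and 4 counts in ESC, 0 in CIMEF and 3 and 5 in DMEF.

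The CIMEF libraries differed between themselves in these clusters. CIMEF replicate 1 held 122 reads of Hoxb and Hoxc and replicate 2 held 8, while Hoxa and Hoxd together held 19860 and 18357. Hoxc8 alone gave 41 of the 122, and of the 19 genes of these clusters 11 had fewer reads in replicate 2, 7 had as many (6 of them 0 in each) and 1, Hoxc13, had more, with 1 read against 0. How many Hox genes passed with 1 library left out is given below, with the share of all tested genes. A pair of hindlimb regulators also differed between the CIMEF libraries: Tbx4 had 20.3 and 0.479 CPM in CIMEF, against 17.9 and 22.2 CPM in DMEF, and Pitx1 had 1.49 and 0.0871 CPM in CIMEF, against 4.72 and 7.38 CPM in DMEF. Both were named after their values were seen. Among the fibroblast markers Thy1 also differed between the CIMEF replicates, with 36.2 and 1.18 CPM, against 107 and 119 CPM in DMEF. Col3a1 (7440 and 4450 CPM) and Fn1 (9280 and 5070 CPM) were likewise lower in CIMEF replicate 2. The other markers of the list went the opposite way: Pdgfra had 149 and 506 CPM, and Col1a1, Col1a2, Pdgfrb and Vim were also higher in replicate 2. The part of these differences in the Hox values was not tested.

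Stem cells had far less mRNA of the Hoxa and Hoxd genes than either fibroblast line. In ESC minus CIMEF, 27 of the 33 tested genes passed, 11 higher and 16 lower, against a background of 75.9% of all tested genes (38.2% higher, 37.7% lower). In ESC minus DMEF 24 passed, 5 higher and 19 lower, against a background of 60.8% (30.3% higher, 30.5% lower). The totals lie near the background, and the comparisons share the ESC libraries. Lower in ESC than in CIMEF were 10 Hoxa genes and the 6 tested Hoxd genes. The same counts of Hoxa and Hoxd genes were lower than in DMEF, with 3 Hoxc genes (Hoxc6, Hoxc8 and Hoxc9). Hoxc9 entered the test through DMEF alone, so its call is counted here but supports nothing. Of the calls, 26 of the 27 and 16 of the 24 held under every alternative that could be fitted. Against DMEF, the lower calls of Hoxa2, Hoxa3, Hoxa4, Hoxc6, Hoxc8 and Hoxc9 were each lost when 1 DMEF or ESC library was left out, with the highest adjusted p of 0.113 for Hoxa4 without DMEF replicate 2. The median log2 difference was -5.28 in Hoxa and -5.83 in Hoxd against CIMEF and -3.61 and -5.53 against DMEF, where all tested genes had medians of 0.064 and 0.062. For Hoxd13 the log2 difference was -5.98 ± 0.16 from CIMEF (edgeR adjusted p = 3.08e-06) and -6.23 ± 0.16 from DMEF (2.95e-06). Hoxa13, Hoxa11 and Hoxd10 had the largest differences from CIMEF, at -6.78 ± 0.34, -6.59 ± 0.38 and -6.57 ± 0.33, leaving out Hoxa6. Hoxa7 and Hoxa4 had the smallest of the Hoxa genes that fell, at -2.29 ± 0.24 and -2.38 ± 0.57. Hoxa6 had no count in ESC, which puts it at least 69.4-fold below CIMEF and at least 23.3-fold below DMEF.

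Fibroblast markers were also read in ESC, and their level relative to fibroblasts was set beside that of the Hox genes. Over the 13 Hox genes with at least 100 counts in each fibroblast line, the ESC level was 0.910 to 20.6% of that in CIMEF (median 1.85%) and 1.08 to 29.2% of that in DMEF (median 2.36%). Hoxa7 was highest against CIMEF and Hoxa3 against DMEF. The 8 fibroblast markers were read in ESC at 0.814 to 24.5% of CIMEF (median 1.54%) and at 1.46 to 13% of DMEF (median 3.40%). The 8 stem cell markers were read in CIMEF at 0.505 to 17.7% of ESC (median 0.773%) and in DMEF at 0.785 to 8.65% (median 0.933%). The ranges of the Hox genes and of the fibroblast markers overlapped in both comparisons, and the part of fibroblast RNA in the ESC values was not tested.

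**Figure D4:**
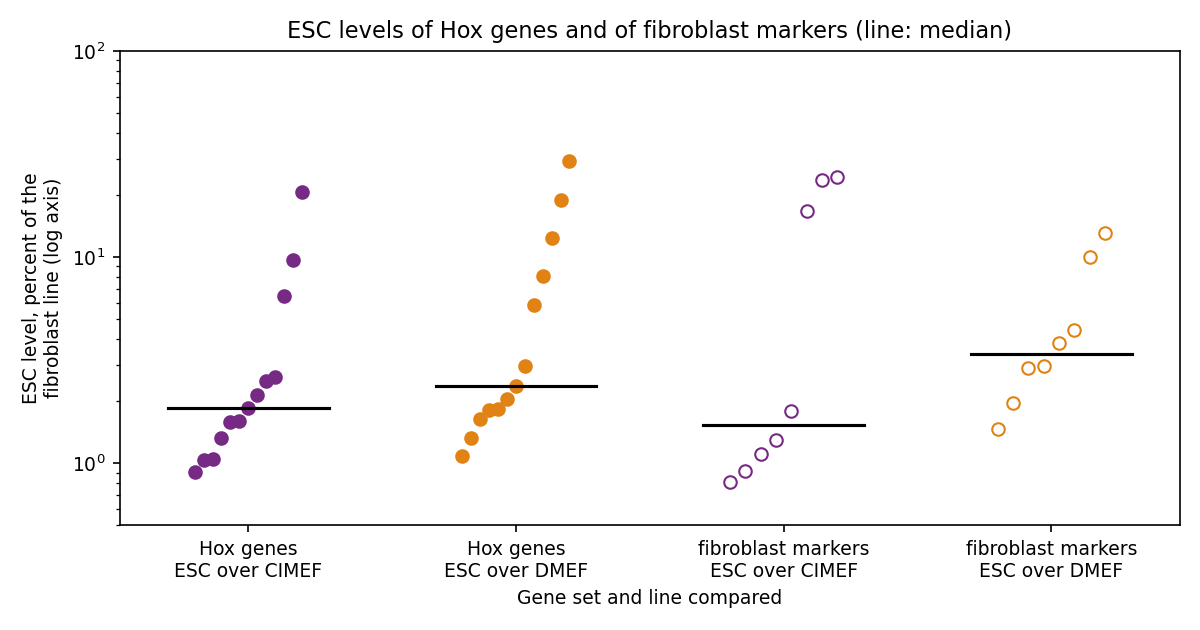
ESC level as a percentage of the level in CIMEF or DMEF (log axis) for the 13 Hox genes with at least 100 counts in each fibroblast line and for the 8 fibroblast markers; each point is a gene and each line the median. The 2 sets overlap, with medians of 1.85 and 2.36% for Hox genes and 1.54 and 3.40% for markers.

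A few Hox genes were higher in stem cells. Hoxc4 and Hoxc13 passed against both fibroblast lines, and Hoxb2, Hoxb8, Hoxb9 and Hoxc10 against CIMEF. Hoxb1, Hoxb4, Hoxb13 and Hoxc12 entered the test through ESC alone, so their calls are counted above but only their values are given here. Hoxc4, Hoxc10 and Hoxc13 needed their ESC libraries to enter it, as too few DMEF libraries reached the low-count filter. Their higher calls in ESC describe them and support nothing, and no p is given for them here. Hoxc13 had 4.05 and 4.47 CPM in ESC, 0 and 0.0435 CPM in CIMEF and 0.440 and 0.612 CPM in DMEF. The ESC libraries lay above all others, with a ratio of 212 to CIMEF (exact 95% interval 37.7 to 8410) and a log2 difference of 3.00 ± 0.46 from DMEF. Hoxc4 had 1.59 and 1.56 CPM in ESC, 0.112 and 0.0435 CPM in CIMEF and 0.280 and 0.419 CPM in DMEF. Its log2 differences were 4.23 ± 0.54 from CIMEF and 2.14 ± 0.43 from DMEF. Hoxb1, which acts in the hindbrain and responds early to retinoic acid, was at least 11.4-fold higher than in CIMEF and at least 12.8-fold higher than in DMEF. Hoxb13 was at least 8.12-fold higher than in CIMEF and Hoxc12 at least 6.62-fold higher than in CIMEF and 7.44-fold higher than in DMEF. Hoxb13 had 1 count in DMEF, for a ratio of 27.4 (exact 95% interval 4.51 to 1120).

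The other ESC differences from CIMEF followed the low CIMEF values given above. Hoxb9 was 3.09 ± 0.65 higher on the log2 scale (edgeR adjusted p = 0.00386), while it did not pass in ESC minus DMEF (log2 -0.96 ± 0.55, adjusted p = 0.167), with 4 of 11 alternatives below the threshold and a range of 0.0250 to 0.615. Hoxb2 was at least 6.62-fold and Hoxc10 at least 6.02-fold higher in ESC than in CIMEF, and the ratio for Hoxb4 was 20.8 (exact 95% interval 3.37 to 855). Hoxb8 was 2.99 ± 0.81 higher (adjusted p = 0.0122). Genes of early differentiation, 7 in the list, summed to 66.4 and 65.2 CPM in ESC, 51.9 and 80.9 CPM in CIMEF and 50.9 and 60.4 CPM in DMEF, and epithelial markers to 1150 and 1110 CPM in ESC, 26.2 and 9.18 CPM in CIMEF and 10.2 and 12.6 CPM in DMEF. Members of the differentiation list differed: T, of the primitive streak, had 12.8 and 12.3 CPM in ESC, 0.0744 and 0.0871 CPM in CIMEF and 0 and 0.193 CPM in DMEF, and passed higher in ESC (log2 7.21 ± 0.77 against CIMEF and 6.84 ± 0.74 against DMEF), as did Mixl1. Eomes, with most of the sum in ESC, did not pass, and Gata6 was lower in ESC. None of the 5 epithelial markers or the 7 differentiation genes was at 0 throughout, and their part in the Hox values was not tested. Among the genes that drew the most reads in ESC were Hoxd13, Hoxc13, Hoxb9 and Hoxa7, between 2.90 and 5.47 CPM in each ESC library.

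Read by paralog group, the fibroblast lines drew most of their Hox reads from group 13, which held 54.0 ± 1.51% of the Hox counts in CIMEF and 62.0 ± 1.43% in DMEF, against 28.3 ± 1.52% in ESC. Group 13 summed to 10.0 and 11.5 CPM in ESC, 393 and 440 CPM in CIMEF and 447 and 436 CPM in DMEF. Group 4 overlapped between the lines, with 2.32 and 2.31 CPM in ESC, 2.60 and 1.00 CPM in CIMEF and 1.64 and 2.32 CPM in DMEF. Paralogs of 1 group differed: in group 13, CIMEF minus DMEF had Hoxa13 higher and Hoxc13 lower, with Hoxd13 not passing and Hoxb13 at 0 or 1 counts. In group 9, Hoxd9 was higher and Hoxb9 lower, and Hoxa9 did not pass. Hoxc9 had lower values in CIMEF but entered the test through DMEF alone. Leaving Hoxc9 aside, the genes of these groups that passed higher were of Hoxa or Hoxd and those that passed lower of Hoxb or Hoxc. Groups 9 and 13 are examples and not a summary of all groups.

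**Figure D5:**
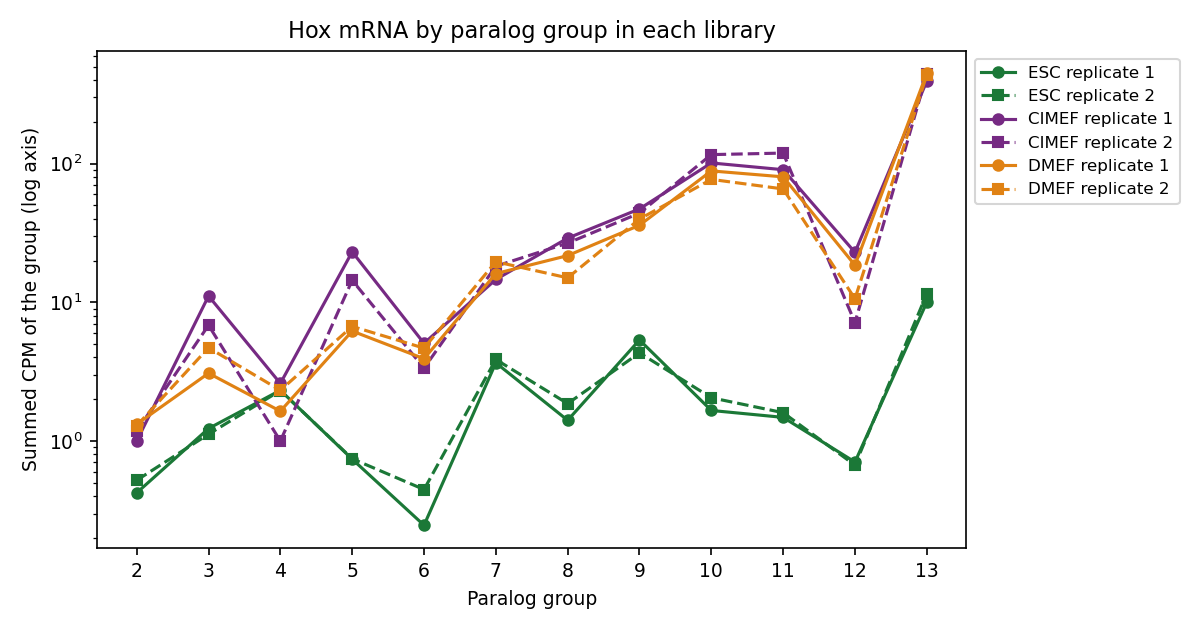
Summed CPM of paralog groups 2 to 13 (log axis) in the 6 libraries, solid for replicate 1 and dashed for replicate 2. The CIMEF and DMEF curves dip at group 12 and reach 393 to 447 CPM at group 13; the ESC curves overlap with the others at group 4 and lie below both fibroblast lines at the other groups drawn.

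Some of these counts are uncertain because genes overlap. The RefSeq spans of 20 of the 39 genes overlap another gene and those of 10 overlap another Hox gene, such as Hoxa3 with Hoxa4, Hoxa5 and Hoxa6, Hoxb3 with Hoxb4, Hoxd3 with Hoxd4, and Hoxd10 with Hoxd11. The whole span of Hoxd4, 7183 bases, lies within that of Hoxd3. Reads in shared bases may have been left uncounted, so 0 counts of Hoxd4 need not mean that it had no RNA. This was not tested. The library kit marks the strand, but the strand setting of the counting is not given in the sources used here, so reads of antisense RNAs may not be told apart. Hoxa11 shares 568 bases with Hoxa11os, an antisense RNA, which had 0.211 and 0.335 CPM in ESC, 19.2 and 17.8 CPM in CIMEF and 14.9 and 7.92 CPM in DMEF.

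Of 14 noncoding RNAs of the clusters that were listed, 11 were found and 7 tested. In CIMEF minus DMEF none was higher and 1 was lower, Gm53, which had 2.64 and 3.20 CPM in ESC, 0.483 and 0.0871 CPM in CIMEF and 1.76 and 1.77 CPM in DMEF (log2 -2.57 ± 0.63, edgeR adjusted p = 0.0175). In ESC 2 were higher and 4 lower than in CIMEF, and 1 was higher and 4 lower than in DMEF. The list medians were -3.91 and -2.21, against 0.064 and 0.062 over all tested genes. Of all tested genes, 40.6% passed in CIMEF minus DMEF, 75.9% in ESC minus CIMEF and 60.8% in ESC minus DMEF. Halr1, which lies beside Hoxa, was the RNA higher in ESC in both: it had 6.90 and 8.12 CPM in ESC, 0.0744 and 0.0435 CPM in CIMEF and 0 and 0.0644 CPM in DMEF. Halr1 was named after its values were seen. Hotair, the noncoding RNA of Hoxc, had 0 counts in all 6 libraries.

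Genes that flank the clusters were also listed. Of 28 listed, 26 were tested: 4 were higher and 2 lower in CIMEF minus DMEF (median log2 0.24), 8 higher and 9 lower in ESC minus CIMEF (0.10) and 8 higher and 7 lower in ESC minus DMEF (0.12). Over all tested genes 40.6%, 75.9% and 60.8% passed in these comparisons. The lowest p-values in CIMEF minus DMEF were those of Atp5g3, a subunit of the mitochondrial ATP synthase (log2 -1.13 ± 0.16, edgeR adjusted p = 0.00297), the transcription factor Atf2 (0.62 ± 0.13, 0.0103) and Calcoco1 (0.68 ± 0.17, 0.0186). The homeobox genes at the ends of Hoxd and Hoxa, named after their values were seen, differed from each other. Evx2, next to Hoxd13, had 0.423 and 0.335 CPM in ESC, 23.1 and 31.7 CPM in CIMEF and 21.4 and 20.1 CPM in DMEF. Evx1, next to Hoxa13, had 8.67 and 7.33 CPM in ESC, 0.149 and 0.0871 CPM in CIMEF and 0.120 and 0.161 CPM in DMEF. Evx2 was thus high in fibroblasts like its Hoxd neighbour, and Evx1 was high in ESC, unlike Hoxa13.

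The TALE proteins Pbx, Meis and Pknox bind DNA together with Hox proteins. All 9 of their genes were tested: 4 were higher and 0 lower in CIMEF minus DMEF, 0 higher and 6 lower in ESC minus CIMEF, and 2 higher and 6 lower in ESC minus DMEF. The median log2 differences were 0.59, -2.64 and -2.27. Of all tested genes, 40.6%, 75.9% and 60.8% passed in these comparisons. Meis1 had 1.13 and 1.01 CPM in ESC, 10.5 and 9.97 CPM in CIMEF and 6.00 and 4.51 CPM in DMEF (CIMEF minus DMEF 0.96 ± 0.28, edgeR adjusted p = 0.0304). Meis3 had 1.41 and 1.23 CPM in ESC, 14.5 and 11.5 CPM in CIMEF and 6.73 and 6.92 CPM in DMEF (0.93 ± 0.25, 0.0252). For both genes the order of the lines was CIMEF above DMEF above ESC, with no overlap.

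Polycomb complexes repress Hox genes by marking and compacting their chromatin. Of 32 listed genes, all tested, 10 were higher and 5 lower in CIMEF minus DMEF, 15 higher and 14 lower in ESC minus CIMEF, and 17 higher and 12 lower in ESC minus DMEF, with median log2 differences of 0.20, 0.34 and 0.49. Ezh1, a methyltransferase of lysine 27 of histone H3, had 37.0 and 34.9 CPM in ESC, 55.1 and 61.2 CPM in CIMEF and 14.3 and 11.4 CPM in DMEF (CIMEF minus DMEF 2.18 ± 0.18, edgeR adjusted p = 0.000646). Phc2, a subunit of the compacting complex, had 32.0 and 32.7 CPM in ESC, 51.0 and 49.3 CPM in CIMEF and 116 and 121 CPM in DMEF (-1.24 ± 0.13, 0.00112). Epop, an accessory subunit of the methylating complex, had 220 and 221 CPM in ESC, 2.45 and 2.09 CPM in CIMEF and 4.80 and 6.22 CPM in DMEF (-1.28 ± 0.19, 0.00325). All tested genes likewise split both ways, with 19.5% higher and 21.1% lower in CIMEF minus DMEF. In ESC minus CIMEF 38.2% were higher and 37.7% lower, and in ESC minus DMEF 30.3% and 30.5%. A larger part of the list than of all tested genes passed in both ESC comparisons, and no set test was run.

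Trithorax proteins act against Polycomb. Of 14 listed genes, with H3K27 demethylases included and all tested, 3 were higher and 3 lower in CIMEF minus DMEF, 8 higher and 5 lower in ESC minus CIMEF, and 7 higher and 3 lower in ESC minus DMEF, with median log2 differences of -0.08, 0.58 and 0.38. The shares of all tested genes that passed were 40.6%, 75.9% and 60.8%. Kmt2c, a methyltransferase of enhancers, had 89.4 and 90.8 CPM in ESC, 289 and 301 CPM in CIMEF and 123 and 108 CPM in DMEF (CIMEF minus DMEF 1.36 ± 0.13, edgeR adjusted p = 0.000954). Kdm6a, which removes the Polycomb mark, rose in CIMEF by 1.01 ± 0.13 (0.00210), and Wdr5, a subunit shared by methyltransferases of lysine 4, fell by 1.03 (SE 0.16, 0.00379).

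Retinoic acid and the Cdx factors switch Hox genes on in the embryo. Of 21 listed genes 18 were tested: 2 were higher and 2 lower in CIMEF minus DMEF, and 7 higher and 7 lower in each of the ESC comparisons, with median log2 differences of -0.35, -0.27 and -0.24. The background was 40.6% of all tested genes in CIMEF minus DMEF, 75.9% in ESC minus CIMEF and 60.8% in ESC minus DMEF. Aldh1a3, which makes retinoic acid, had 0.387 and 0.670 CPM in ESC, 0.558 and 1.35 CPM in CIMEF and 7.05 and 8.05 CPM in DMEF (CIMEF minus DMEF -2.99 ± 0.50, edgeR adjusted p = 0.00467). The corepressor Ncor1 was 0.57 ± 0.15 higher in CIMEF (0.0230). Cdx1, an activator of Hox genes in the tail bud, had 112 and 122 CPM in ESC, 1.15 and 1.04 CPM in CIMEF and 0.801 and 0.966 CPM in DMEF, and Cdx2 had 15.4 and 15.5 CPM in ESC, 0.0372 and 0.131 CPM in CIMEF and 0.280 and 0.0966 CPM in DMEF. Both were high in ESC alone and were named after their values were seen.

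The list of 35 other regulators of position and of the limbs had 31 tested genes. In CIMEF minus DMEF 7 were higher and 2 lower (median log2 0.16), in ESC minus CIMEF 4 higher and 22 lower (-4.14) and in ESC minus DMEF 4 higher and 26 lower (-4.39). Of all tested genes, 19.5% were higher and 21.1% lower in CIMEF minus DMEF. The shares were 38.2% and 37.7% in ESC minus CIMEF, and 30.3% and 30.5% in ESC minus DMEF. Tbx5, a forelimb factor, had 0.599 and 0.670 CPM in ESC, 63.1 and 70.7 CPM in CIMEF and 22.3 and 29.0 CPM in DMEF (CIMEF minus DMEF 1.38 ± 0.19, edgeR adjusted p = 0.00244). Prrx1, a factor of limb mesenchyme, had 6.90 and 8.93 CPM in ESC, 910 and 748 CPM in CIMEF and 415 and 323 CPM in DMEF (1.17 ± 0.20, 0.00498). Tbx2 rose in CIMEF by 1.85 ± 0.40 (0.0115). Tbx5 was higher in both CIMEF libraries than in DMEF. The hindlimb factor Pitx1 was lower in both CIMEF libraries than in either DMEF library and passed (log2 -2.91 ± 0.89, edgeR adjusted p = 0.0384). The hindlimb factor Tbx4 lay between the DMEF values in CIMEF replicate 1 and below them in replicate 2, and did not pass (-0.94 ± 1.14, 0.531).

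The clusters also encode miRNAs, which were measured in the small-RNA input libraries of 2 time courses per line. Their mature sequences from RefSeq are shown with the seed, bases 2 to 8, in capitals, because the seed shows which of them can share targets.
miR-10a-5p (Hoxb): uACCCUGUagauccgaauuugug
miR-10b-5p (Hoxd): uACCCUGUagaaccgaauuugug
miR-196a-5p (copies in Hoxb and Hoxc): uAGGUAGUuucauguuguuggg
miR-196b-5p (Hoxa): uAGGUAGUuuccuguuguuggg
miR-615-3p (Hoxc): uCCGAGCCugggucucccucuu
The miR-10 members share 1 seed and the miR-196 members another. Levels are in CPM of miRNA counts summed over a course and are given without a test. The level of miR-196b-5p (chr6:52230129-52230150) was 12.4 and 15.5 in the ESC courses, 4110 and 3770 in CIMEF and 2740 and 2370 in DMEF. That of miR-10b-5p (chr2:74726074-74726096) was 96.2 and 233 in ESC, 853 and 640 in CIMEF and 272 and 144 in DMEF. Both miRNAs were highest in CIMEF. Mir10b lies within the annotated spans of Hoxd3 and Hoxd4, which had nearly no counts in the mRNA libraries. The level of miR-196a-5p (chr11:96265187-96265208 and chr15:102973365-102973386) was 339 and 873 in ESC, 8.93 and 3.94 in CIMEF and 78.0 and 4.55 in DMEF. That of miR-10a-5p (chr11:96317186-96317208) was 36.3 and 12.1 in ESC, 10.4 and 0.374 in CIMEF and 90.3 and 1.56 in DMEF. That of miR-615-3p (chr15:103014969-103014990) was 15.4 and 47.9 in ESC, 5.91 and 0.0340 in CIMEF and 64.5 and 0.780 in DMEF. All 5 miRNAs were lower in course 2 than in course 1 in both fibroblast lines.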

How the data were processed

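The authors deposited raw read counts per gene for the mRNA libraries and per miRNA for the input libraries, with no normalization. Per the labels' protocols, poly(A) RNA was made into strand-marking libraries and read as 40-base single ends. The submitters' processing notes name cutadapt, STAR 2.4 and HTSeq 0.9.1 with the mouse build mm10/GRCm38. Symbols were paired with 54409 of 54532 identifiers, and 18094 genes passed edgeR's expression filter. The counts of all 6 mRNA libraries were fitted together with edgeR 4.0.16 (TMM scaling, quasi-likelihood test) in R 4.3.3, and two-sided p-values were given a Benjamini-Hochberg adjustment across the tested genes and called at 0.05. The fit was tested on simulated data first. The SE is the log2 difference divided by the root of the F statistic. Alternatives were DESeq2 1.42.0, RLE size factors, no low-count filter, fits of 4 libraries, a replicate block and each library left out. Where a line had 1 to 3 counts of a gene, the ratio is printed with its exact 95% interval, and where it had 0, with a floor of 3 counts over both libraries. No exon lengths were used, so the levels per kilobase first planned were replaced by CPM and shares by shares of read counts. Named genes are the 3 with the highest fibroblast CPM per cluster, the 10 with the largest difference called in CIMEF minus DMEF, the 5 highest in ESC, those at 0 in a line and those called higher in ESC, with 3 called genes of lowest p per list. The genes and lists were chosen with earlier results of these data known. The pulldown tables and the Cyrano knockout tables were not used here. A few genes of the table are not reported here.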

Additional observations from a re-analysis of the deposited data

How the results depend on the processing

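Numbers of Hox genes that passed are given with the share of all tested genes that passed at the same setting. In CIMEF minus DMEF, leaving out 1 library gave 8 to 22 genes in place of 18, with 2 to 8 higher in place of 8 and 6 to 14 lower in place of 10, while the share of all genes ran over 18.6 to 43.1% in place of 40.6%. The lowest count and share both came without DMEF replicate 2. The genes lower numbered 6 with DESeq2 (18.3% of all genes lower) and 6 when only the 4 fibroblast libraries were fitted (16.5%). In ESC minus CIMEF leaving out 1 library gave 26 to 32 genes (10 to 16 higher, 16 to 18 lower; 56.8 to 73.5% of all genes), and in ESC minus DMEF 17 to 27 (3 to 5 higher, 14 to 22 lower; 41 to 66.4%). DESeq2 called 3 genes higher in ESC minus DMEF in place of 5 (28.6% of all genes higher). Without the low-count filter 22, 30 and 28 genes passed in CIMEF minus DMEF, ESC minus CIMEF and ESC minus DMEF (27%, 47.2% and 37.5% of all genes).

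Replicate numbers are shared between lines, but deviations of same-numbered libraries correlated across genes by 0.029 (CIMEF and DMEF), -0.004 (CIMEF and ESC) and -0.008 (DMEF and ESC). These values show no shift common to most genes. They cannot tell whether same-numbered libraries share an origin that affects few genes. With a replicate block 16, 27 and 24 Hox genes passed in the 3 comparisons, where 37%, 73.9% and 58.9% of all tested genes passed. Without it 18, 27 and 24 passed, beside 40.6%, 75.9% and 60.8% of all tested genes.

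Single genes changed direction in 15 cases, none of them in a comparison where the gene passed with all libraries. In CIMEF minus DMEF, leaving out 1 library gave log2 differences of -0.33 to 0.46 for Hoxa11, -0.38 to 0.91 for Hoxa4, -0.27 to 0.12 for Hoxa7 (0.09 without DMEF replicate 2), -6.36 to 0.11 for Hoxc5 and -0.96 to 0.65 for Hoxd12 (-0.28 without DMEF replicate 2), and the replicate block gave -0.09 for Hoxd12. In ESC minus CIMEF it gave -0.34 to 2.71 for Hoxb3, -0.56 to 5.77 for Hoxb6, -0.80 to 5.67 for Hoxc5 (-0.48 without ESC replicate 1), -5.97 to 4.34 for Hoxc6, -3.77 to 4.59 for Hoxc8 and -0.24 to 1.37 for Hoxc9. Apart from those 3 single-library values and the block, each changed direction came from leaving out a CIMEF library. The cause was not tested.

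With 2 libraries a line, leaving 1 out of a share gives the other library's value: the Hoxb share was 0.240 and 0.0272% and the Hoxc share 0.370 and 0.0163% in the CIMEF libraries. Scaling to exon length, with or without shared bases, was not run, since no exon lengths were used. Low counts of most Hoxb and Hoxc genes limit those differences.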
